A study of Drosophila melanogaster with 4 samples.

Results

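The regions described here are the Atonal peaks on 3L, the left arm of chromosome 3 of Drosophila melanogaster, that lie outside the centromere end of the arm. They were taken from the single list of peaks deposited for brains of L3 larvae, the last larval stage, as all peaks on 3L that start below 22500 kb, whatever their score. These are 265 of the 3280 peaks in the list, or 8.08%, and 265 of the 495 peaks on 3L. Below, 3L stands for this sequence unless the centromere end is named. Positions are counted from 1, and the sequence names of the list are those of release 5 of the fly genome.

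The libraries behind the list are of 2 kinds, 2 immunoprecipitated with an antibody against GFP (atoIP) and 2 input libraries. All 4 came from larvae of the ato:GFP knock-in IMAGO line, kept at 25 °C without treatment, so the input carries the same tagged allele. The labels give 400 dissected brains, which were fixed and sonicated, and 10% of the volume was kept as input. Each library therefore mixes the cells of whole brains, and binding in few cells and weak binding in many cells cannot be told apart. An immunoprecipitation from larvae without the tag was not analysed here.

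Atonal is a proneural transcription factor of the basic helix-loop-helix family. It pairs with the broadly expressed protein Daughterless, and the pair binds short DNA sequences called E-boxes near target genes. In the fly, Atonal is known for starting the formation of the R8 photoreceptors of the eye and of the chordotonal stretch organs, and in the larval brain it is present in groups of cells of the developing visual system. The tagged gene ato lies on 3R in the gene table at hand, not on 3L. That table is of release 6, so no gene, promoter, intron or E-box was assigned to a peak here, and no sequence of a peak is printed.

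The list holds 1 row per peak, with a whole-number score whose scale is not given and which is used only to rank peaks. It has no values for single libraries. The spread between replicates and the read depth are thus unknown, no test between conditions was possible, and differences between arms were not tested. Intervals are 95% intervals for counting error over peaks. They treat peaks as independent, which peaks in runs may not be.

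The 265 peaks gave 11.8 peaks per Mb of 3L (exact Poisson interval 10.4 to 13.3), and together they covered 32.2 kb, or 0.143% of the 22500 kb. The peaks were not spread evenly, and they became more frequent towards the centromere. The sequence was split into 3 parts of 7.5 Mb. The part at the telomere held 55 peaks, or 7.33 per Mb (5.52 to 9.55). The middle part held 88 peaks, or 11.7 per Mb (9.41 to 14.5). The part towards the centromere held 122 peaks, or 16.3 per Mb (13.5 to 19.4), which was 2.22 times the count at the telomere (interval of the ratio 1.60 to 3.11). Scores and widths, in contrast, were alike in the 3 parts. The share of peaks with a score above 25, the median of the whole list, was 38.2% at the telomere, 37.5% in the middle and 37.7% towards the centromere. The median widths in the same order were 105, 106 and 106 bp.

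**Figure D1:**
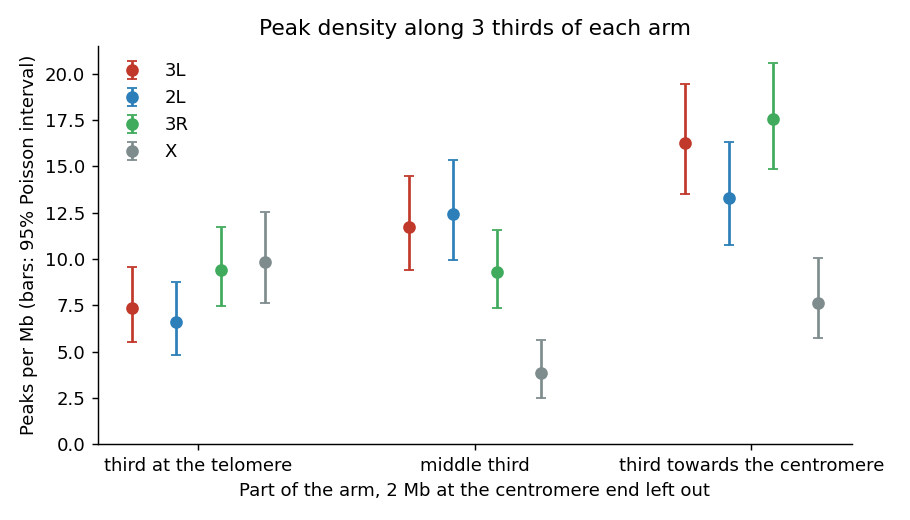
Peaks per Mb (y axis) in 3 parts of equal length of 3L, 2L, 3R and X, from the telomere to the centromere, without the 2 Mb at the centromere end. Points are densities and bars 95% Poisson intervals for counting error; on 3L the densities are 7.33, 11.7 and 16.3 peaks per Mb.

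In complete bins of 1 Mb, 3L held 11.8 ± 5.55 peaks (SD, n = 22 bins), with a median of 11.5. No bin was empty, and the variance was 2.61 times the mean, whereas independent peaks at a uniform density would give a value near 1. The bin from 20 to 21 Mb held most peaks, with 27, of which 15 scored above 25. The bin from 15 to 16 Mb followed with 18 peaks, of which 5 scored above 25. The bin from 9 to 10 Mb held 17 peaks, 10 of them with scores above 25. The bin from 19 to 20 Mb also held 17, and 6 of these scored above 25. Fewest peaks lay in the bin from 0 to 1 Mb, with 2, followed by the bins from 8 to 9 Mb, with 4, and from 2 to 3 Mb, with 5. None of the 4 peaks between 8 and 9 Mb scored above 25, and both peaks below 1 Mb did.

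The first peak of the arm began at position 742718, so the first 742.7 kb held none. Consecutive peaks were a median of 38.8 kb apart (quartiles 7.55 and 110.6 kb), and 31 of the 264 gaps exceeded 200 kb. Among the 264 gaps between 2 of these peaks, the longest spanned 755.8 kb, from 10129342 to 10885162. The next spanned 698.9 kb, from 795895 to 1494755. Gaps of 573.5 kb (2347123 to 2920606), 539.9 kb (5495508 to 6035389) and 444.4 kb (7881947 to 8326327) followed. Among these 5, 4 lay in the part of the arm below 10 Mb, where peaks were sparser, and the longest began just beyond it. Whether any of these stretches holds sequence to which reads cannot be aligned was not examined.

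The scores of the peaks on 3L ran from 13 to 483, around a median of 23, and the middle 50% of them lay between 18 and 31. The lowest score of the list, 13, was carried by 18 of the 265 peaks, or 6.79% (Wilson interval 4.34 to 10.5%), against 8.78% of all peaks. A score above 25 was carried by 100 peaks, or 37.7% (32.1 to 43.7%), against 47.6% of all peaks. In the highest of 4 score classes were 37 peaks on 3L, or 13.96%, which scored 37 or more, against 24.5% of all peaks. The whole list includes these 265 peaks and the heterochromatin sequences. Scores above 25, and those of 37 or more, thus made up less of this sequence than of the list. The same held at 60 or more, with 4.15% against 7.07%. The differences in these shares were not tested. The 3 highest scores on 3L ranked 2, 8 and 10 in the list, and the next ranked 66. The peaks ranked 8 and 10 are neighbours, described below.

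The peak with the highest score, 483, was 1188 bp wide and lay at 17352898 to 17354085. Only 1 peak in the list scored higher. Its nearest neighbour lay 18384 bp away and the other 143193 bp away, so it stands alone. None of the other 264 peaks was wider than 332 bp.

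**Figure D2:**
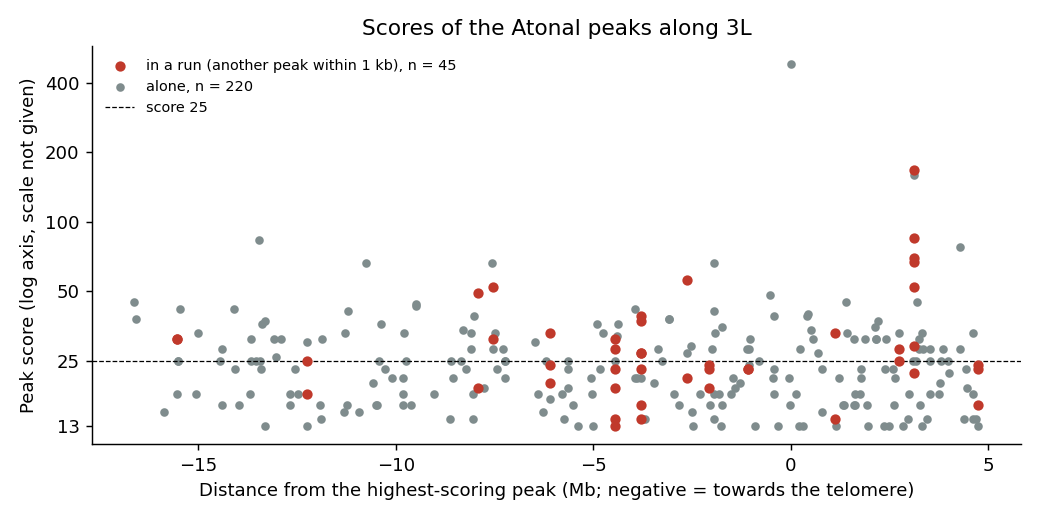
Score of each of the 265 peaks on 3L (y axis, log scale, unit not given) against the distance in Mb from the highest-scoring peak (x axis). Red points are the 45 peaks in runs and grey points the 220 peaks with no other peak within 1 kb; the peak with score 483 stands alone at 0, and a stack of red points about 3 Mb to its right is the run of 7 peaks.

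The scores next in rank, 168, 160 and 85, belonged to neighbours. A run is used here for 2 or more peaks less than 1 kb apart. The longest run on 3L had 7 peaks between 20475333 and 20477423. It was 2.09 kb long, and its peaks took up 65.7% of that length. In order along the chromosome their scores were 67, 29, 70, 22, 52, 85 and 168. High and low scores alternated over the first 4 peaks, and the highest was the last. The widths in the same order were 126, 126, 167, 213, 126, 311 and 305 bp. The gaps between them were short and alike, from 79 to 169 bp. Starts were on average 297.7 bp apart.

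The score of 160 was that of a peak of 332 bp at 20469983 to 20470314, which ended 5018 bp before the run. The group of 8 peaks spanned 7.44 kb and had a median score of 68.5. It held 6 of the 20 highest scores on 3L and 5 of the 11 scores of 60 or more. On the other side the next peak lay 43316 bp away. Among the 46 runs of 5 or more peaks in the whole list, the run of 7 had the highest median score, 67. Of the 46, 25 lay outside the heterochromatin sequences, and these include runs on chromosome 4 and at the centromere ends of arms. The runs next to it in this order had medians of 46.5 and 41, and the median over the 46 runs was 24.5. This rank was looked up after the scores had been seen and is a description. Where sequence carried by the knock-in construct would align, relative to this run or to the peak with score 483, was not analysed here. The list does not tell a row of separate sites from 1 wide region that was called as several peaks.

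**Figure D3:**
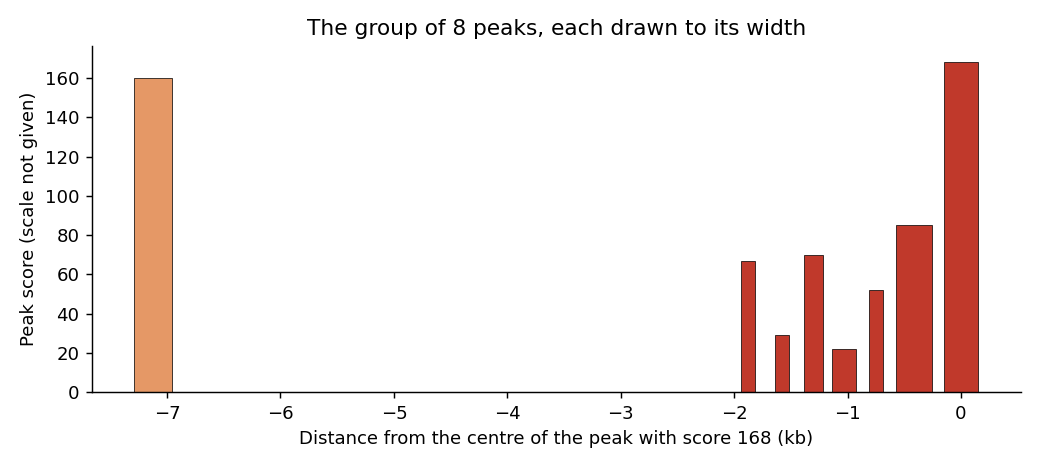
Score (y axis) of each peak in the group of 8 on 3L, drawn to its width, against the distance in kb from the centre of the peak with score 168 (x axis). Red bars are the run of 7 peaks and the orange bar is the peak with score 160, which ended 5018 bp before the run.

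The group of 8 peaks carried part of the excess in its bin but not the increase along the arm. Without it the bin from 20 to 21 Mb held 19 peaks and was still the fullest. The part towards the centromere then held 114 peaks, or 15.2 per Mb, 2.07 times the count at the telomere. Scores of 60 or more were carried by 6 peaks without the group, against 11 with it.

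Other high scores lay apart from each other. The fifth, 83, belonged to a peak of 290 bp at 3903449 to 3903738, and the sixth, 78, to a peak of 71 bp at 21630902 to 21630972. A width of 71 bp is the smallest in the list, so a high score did not need a wide peak. A score of 66 was shared by 3 peaks. They lay at 6613812 to 6614061 (250 bp), 9791407 to 9791500 (94 bp) and 15419415 to 15419540 (126 bp). The peak at 6613812 was also among the most isolated, with no other peak within 161061 bp.

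The remaining members of the 20 highest scores ranged from 44 to 56. A peak of score 56 lay at 14715935 to 14716057, and a peak of score 52 at 9813554 to 9813624. Scores of 49 and 48 belonged to the peaks at 9437413 to 9437549 and 16827106 to 16827186. A score of 45 was shared by the peaks at 742718 to 742856, 18745859 to 18745953 and 20551297 to 20551562, and the peak at 7881869 to 7881946 scored 44. The first of these is the peak nearest the telomere. The peak just outside the 20 highest scored 43. Of the 20, 3 lay in the part at the telomere, 5 in the middle and 12 towards the centromere, and 8 lay in runs. All peaks on 3L numbered 55, 88 and 122 in the same parts, and 45 of them lay in runs. The group of 8 peaks made up 6 of the 12 towards the centromere, and the run of 7 made up 5 of the 8 in runs. These counts are thus no sign of higher scores along the arm.

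The peaks were narrow. Widths ran from 71 to 1188 bp around a median of 106 bp, with quartiles at 84 and 137 bp. The smallest width, 71 bp, was shared by 13 peaks, and 19 peaks, or 7.17% (Wilson interval 4.64 to 10.9%), were wider than 200 bp. Narrow peaks were not particular to 3L. In the whole list the median width was 110 bp, 118 of 3280 peaks were 71 bp wide and 10.5% were wider than 200 bp. Without 2 Mb at the centromere end, 2L, 3R and X had medians of 105, 98.5 and 126 bp. Of the 10 widest peaks on 3L, 7 were among its 20 highest scores. The exceptions were peaks at 19103200 to 19103504 (305 bp, score 18), 13569186 to 13569423 (238 bp, score 27) and 2920607 to 2920834 (228 bp, score 25). Over all 265 peaks, with the widest ones included, Spearman's rho between score and width was only 0.05. Both values come from the same peak call, and rho is a description of this list. Median widths were 106 bp at scores of 13 to 18, 106 bp at 19 to 25, 101 bp at 26 to 36 and 123 bp at 37 or more.

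Most peaks stood alone, and 45 of 265, or 17.0% (Wilson interval 12.9 to 21.97%), had another peak within 1 kb. Over the whole list this share was 42.2%. On 3L the 45 peaks formed 16 runs, of which 9 had 2 peaks, 5 had 3 peaks, 1 had 5 and 1 had 7. The run of 5 peaks lay between 13567829 and 13569903, with scores of 39, 37, 23, 27 and 16 in order along the chromosome. Its peaks covered 44.1% of the stretch and lay 115 to 453 bp apart. Unlike in the run of 7, the highest score was the first, and none of its peaks was among the 20 highest. A further 3 peaks followed within 10 kb, so that 8 peaks lay between 13567829 and 13573020.

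The runs of 3 peaks lay at 11270746 to 11271484, 12912576 to 12913499, 12915740 to 12916995, 15289873 to 15290889 and 22093424 to 22094930. Their median scores were 24, 28, 19, 23 and 23 in this order. The runs at 12912576 and 12915740 are neighbours and make a group of 6 peaks over 4.42 kb. Peaks in runs were most frequent in the middle part of the arm. Of its 88 peaks, 22 had another within 1 kb (25.0%, Wilson interval 17.1 to 35.0%), against 19 of 122 towards the centromere (15.6%, 10.2 to 23.05%) and 4 of 55 at the telomere (7.27%, 2.86 to 17.3%). Density rose from each part to the next, whereas the share of peaks in runs was highest in the middle. The 3 intervals of this share overlap, and differences between the parts were not tested.

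Peaks in runs had a median score of 25 and a median width of 126 bp (n = 45), and peaks alone a median score of 23 and a median width of 103.5 bp (n = 220). Of the peaks in runs 21, or 46.7% (Wilson interval 32.9 to 60.9%), scored above 25, and of the peaks alone 79, or 35.9% (29.9 to 42.4%). These intervals overlap. Without the run of 7 the first share was 39.5% (25.6 to 55.3%) and the median width 111 bp. The share of peaks with a neighbour within 1 kb was 7.95% (3.91 to 15.5%) at scores of 13 to 18. It was 22.1% at 19 to 25, 17.5% at 26 to 36 and 27.0% (15.4 to 43.0%) at 37 or more. Of the 10 peaks in runs in the highest class, 5 belonged to the run of 7. Without that run the share there was 15.6% (5 of 32, 6.86 to 31.8%), against 21.1% at 19 to 25 and 16.1% at 26 to 36.

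The 5 most isolated peaks scored below the median, but the peak that came sixth in isolation, at 6613812, had a score of 66. The peak at 8326328 to 8326404, with a score of 18, had no other within 401250 bp. The peaks at 1494756 to 1494863 and 6416351 to 6416440 both scored 15, with nearest neighbours at 323886 and 197371 bp. The next were a peak of score 21 at 7267529 to 7267618, isolated by 170687 bp, and a peak of score 18 at 15043582 to 15043727, isolated by 169683 bp. Of these 5 peaks, 4 lay below 10 Mb. Peaks were sparser there, with 7.33 per Mb in the part at the telomere against 11.8 over 3L.

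Set beside the other arms, with 2 Mb at the centromere end left out of each, 3L was close to 2L and 3R in density, and 2R was not part of the comparison. It held 11.8 peaks per Mb, against 10.8 on 2L (226 peaks) and 12.1 on 3R (312 peaks). The ratio was 1.09 to 2L (interval 0.91 to 1.31) and 0.974 to 3R (0.824 to 1.15), so both intervals include equal density. X held 7.11 peaks per Mb (145 peaks), and the ratio of 3L to X was 1.66 (1.35 to 2.04). In bins of 1 Mb the variance was 9.83 times the mean on X, 2.61 on 3L, 2.24 on 2L and 3.93 on 3R. The intervals assume independent peaks and are thus likely too narrow, most of all for X. The copy number of X in these larvae was not analysed here. A higher density towards the centromere than at the telomere was also seen on 2L and 3R. The counts did not follow the same course along the arm. However, the intervals of each part overlap among 3L, 2L and 3R, and a difference in course was not tested. The 3 parts, from the telomere on, held 6.58, 12.4 and 13.3 peaks per Mb on 2L. On 3R they held 9.42, 9.30 and 17.6, so there the rise lay in the part towards the centromere. The ratio of the part towards the centromere to the part at the telomere was 2.22 on 3L, 2.02 on 2L (1.41 to 2.94) and 1.86 on 3R (1.41 to 2.47). On X it was 0.776 (0.530 to 1.13).

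Median scores were 23 on 3L and 23 on each of 2L, 3R and X. The share of scores above 25 was 37.7% on 3L, against 37.2% on 2L, 38.5% on 3R and 44.8% on X. Scores of 60 or more made up 4.15% on 3L, with 11 peaks, against 1.77% on 2L, with 4, 4.17% on 3R, with 13, and 8.97% on X, with 13. The share of peaks with another within 1 kb was 17.0% on 3L, 16.4% on 2L, 19.6% on 3R and 51.0% on X. The median gap to the nearest peak was 16.6 kb on 3L, 7.10 kb on 2L, 12.7 kb on 3R and 0.939 kb on X. The median score did not separate the arms. In the share with another peak within 1 kb, 3L was close to 2L and 3R, and its Wilson interval did not overlap that of X. In the other measures 3L was nearer to 2L and 3R than to X. However, the intervals of 3L and X overlap for scores above 25 and for scores of 60 or more. The median gap was also longer on 3L than on 2L and 3R. The longest run had 7 peaks on 3L, 4 on 2L, 6 on 3R and 21 on X.

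**Figure D4:**
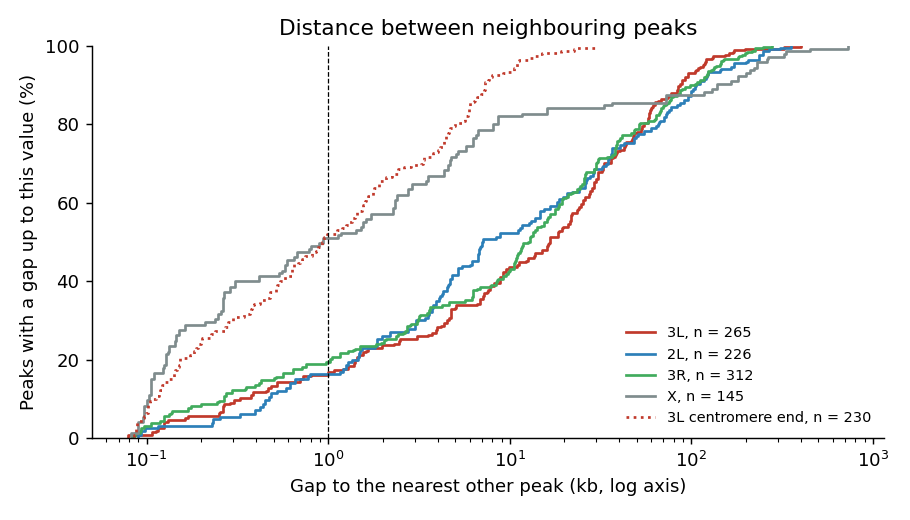
Share of peaks (y axis, percent) whose gap to the nearest other peak is at most the value on the x axis (kb, log scale), for 3L below 22500 kb, for 2L, 3R and X without 2 Mb at the centromere end, and for 3L from 22500 kb on (dotted). At 1 kb, marked by the dashed line, the curves stand at 17.0% for 3L, 16.4% for 2L, 19.6% for 3R, 51.0% for X and 52.2% for the centromere end of 3L.

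The boundary at 22500 kb fell inside a stretch of 657.0 kb without a peak, so no peak lies close to it. The last peaks inside were at 22093909 to 22094055 (score 23), 22094860 to 22094930 (score 16) and 22098468 to 22098638 (score 13). The first peaks outside were at 22755633 to 22755712 (score 18), 22756897 to 22756995 (score 16) and 22757874 to 22757961 (score 19). The peaks on either side thus had scores of the same range. Over the length the density differed widely: 11.8 peaks per Mb on 3L below the boundary, against 114.2 per Mb beyond it (230 peaks), a ratio of 0.103 (interval 0.0861 to 0.124). The share of peaks with another within 1 kb was 17.0% below the boundary and 52.2% (45.7 to 58.5%) beyond it. Scores above 25 made up 37.7% below and 47.0% (40.6 to 53.4%) beyond. The median width was 106 bp below and 119 bp beyond.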

How the data were processed

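The file is a single peak list, in which the authors gave each peak a whole-number score. The submitters' processing notes name Bowtie2 2.2.1 as the aligner. How peaks were called from the libraries is not stated in the labels or the file, including the caller, threshold, role of the input, pooling of replicates and treatment of reads with several matches. The last of these bears on peaks in repeats. The genome build is read from the sequence names, and coordinates were not converted. Peaks on 3L with a start below 22500 kb were kept with all scores. 2L and X were used without the 2 Mb before the end of their last peak, and 3R without its first 2 Mb. Densities use these lengths. Distances are gaps between peak edges. Intervals are exact Poisson for densities, exact conditional for ratios and Wilson for shares, at 95%, computed with Python 3.11.15, pandas 2.3.3, NumPy 2.4.6 and SciPy 1.17.1. The functions for runs, neighbours and the density ratio were checked on a simulated list, and those for intervals were not. Peaks named are the 20 highest scores, the 10 widest, those of runs of 4 or more, the 5 most isolated, the fullest and emptiest bins, and the 3 on either side of the boundary. Runs of 3, the long gaps, groups within 10 kb and score classes without the run of 7 were added after the values were seen. The members and rules were chosen with earlier results of these data known.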

Additional observations from a re-analysis of the deposited data

How the results depend on the processing

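The 13 results were recomputed under 9 other settings, which gave 84 values, and 72 stayed within the interval of the reported value or, for counts, within 1.5 times. The ratio of the parts of the arm, and its settings, were added after the data were seen, and it stayed between 1.99 and 2.24. With scores above 25 only, 100 peaks were left, or 4.44 per Mb, with 5 runs and 15 peaks in the fullest bin. By construction the median score was then 33 and the share above 25 was 100%. With peaks less than 1 kb apart counted once, the share with a neighbour and the number of runs were 0 by construction. The ratio of 3L to X was then 2.33, since X holds more of its peaks in runs. Over 2 kb the share with a neighbour was 23.8%. Over 10 kb, a distance added later, it was 43.8%, in 39 runs. Neither a boundary at 22 or 23 Mb, nor leaving out the fullest bin or peaks wider than 500 bp, moved a result past its interval. No paired analysis was possible because the list gives 1 score per peak and nothing per library, and for the same reason no replicate could be left out. Depth, and with it the number of weak sites missed, is unknown.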
